A study of Mus musculus with 2 samples.

Results

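Mitochondrial ribosomal protein genes were followed in mouse bone marrow-derived macrophages with and without deoxycholic acid. They were taken as every gene of the deposited table whose symbol starts with Mrpl or Mrps and a number. The rule found 78 of the 15576 genes, 49 named for the large subunit of the ribosome (Mrpl) and 29 for the small subunit (Mrps). All 78 were protein-coding in the mouse annotation and carried the same symbol there.

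The macrophages were wild type and had been grown in culture from bone marrow. The series holds 2 RNA-seq libraries. One, DCA, is from a culture exposed for 24 h to deoxycholic acid at 100 µM, a bile acid that gut bacteria produce. The other, NC, is from a culture without deoxycholic acid. The sources used here do not name the vehicle of the NC cells or the number of animals behind each library, and the labels leave unclear whether the cells were collected at the end of the 24 h or a day later. With 1 library per group there is no replicate check, so differences are described between these libraries and none was tested between the conditions.

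The mitochondrial ribosome makes the few proteins that mitochondrial DNA encodes, which are core subunits of the respiratory chain and of ATP synthase. All of its proteins are encoded in the nucleus, made in the cytosol and imported into the organelle, where they assemble on ribosomal RNA from mitochondrial DNA. Some descend from proteins of the bacterial ribosome and others have no bacterial homologue. The symbols do not follow the structure fully: Mrps30 and Mrps18a are proteins of the large subunit in mammals, and Mrps36 is now known as a component of the 2-oxoglutarate dehydrogenase complex. The genes encoded by mitochondrial DNA itself were not analysed here.

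The deposited unit is FPKM, which scales the reads of a gene by its length and by the depth of the library. Because the low values stepped in whole reads, the read count behind each value could be rebuilt. Of 11794 genes with few enough reads for the check, 11371 (96.4%) came out whole in both libraries, within 0.05 read, and all 78 members did. The totals were 56.57 (DCA) and 59.21 (NC), in units of 1e6 reads. Each ratio of FPKM below carries an exact 95% Clopper-Pearson interval from these reads. The interval covers counting error only, and PCR copies are not independent molecules. Over all genes the log ratios spread 2.65 times as widely as counting error alone, by a robust SD, and over the members 2.67 times.

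As a group, the mitochondrial ribosomal protein genes were nearly level between the libraries. All 78 held 0.197% of the reads in DCA and 0.196% in NC. The 77 that passed the filter on low values held 110841 reads in DCA against 115433 in NC, for a ratio of 1.005 (interval 0.997 to 1.013). Genes were compared mainly by log2(FPKM + 1), as DCA minus NC, where their mean FPKM was 1 or more. This scale understates the difference of genes with a low FPKM, which include genes with many or long annotated transcripts for their reads. On it, 77 members passed, and their median difference was 0.022, beside 0.0067 over all 9656 genes that passed. With the median of genes of like exon length subtracted it was -0.013. Of the 77 members, 40 (51.9%) were higher in DCA and 37 (48.1%) were lower, beside 53.5% and 46.5% of all genes.

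The differences of single members were small. At a limit of 1.1-fold in FPKM + 1, 9 members (11.7%) were higher and 4 (5.19%) lower, beside 8.99% and 4.79% of all genes. None reached 1.5-fold, which 0.342% of all genes reached upwards and 0.155% downwards, or 2-fold, which 0.155% reached upwards and 0.0932% downwards. The counting interval lay above equality for 20 members (26.0%) and below it for 16 (20.8%), beside 25.6% and 20.0% of all genes with rebuilt reads. These shares are near the background and say nothing particular about the members. The ratios ran from 0.807 (Mrpl1) to 1.58 (Mrpl53), and the middle 50 percent of members lay between 0.935 and 1.08.

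**Figure D1:**
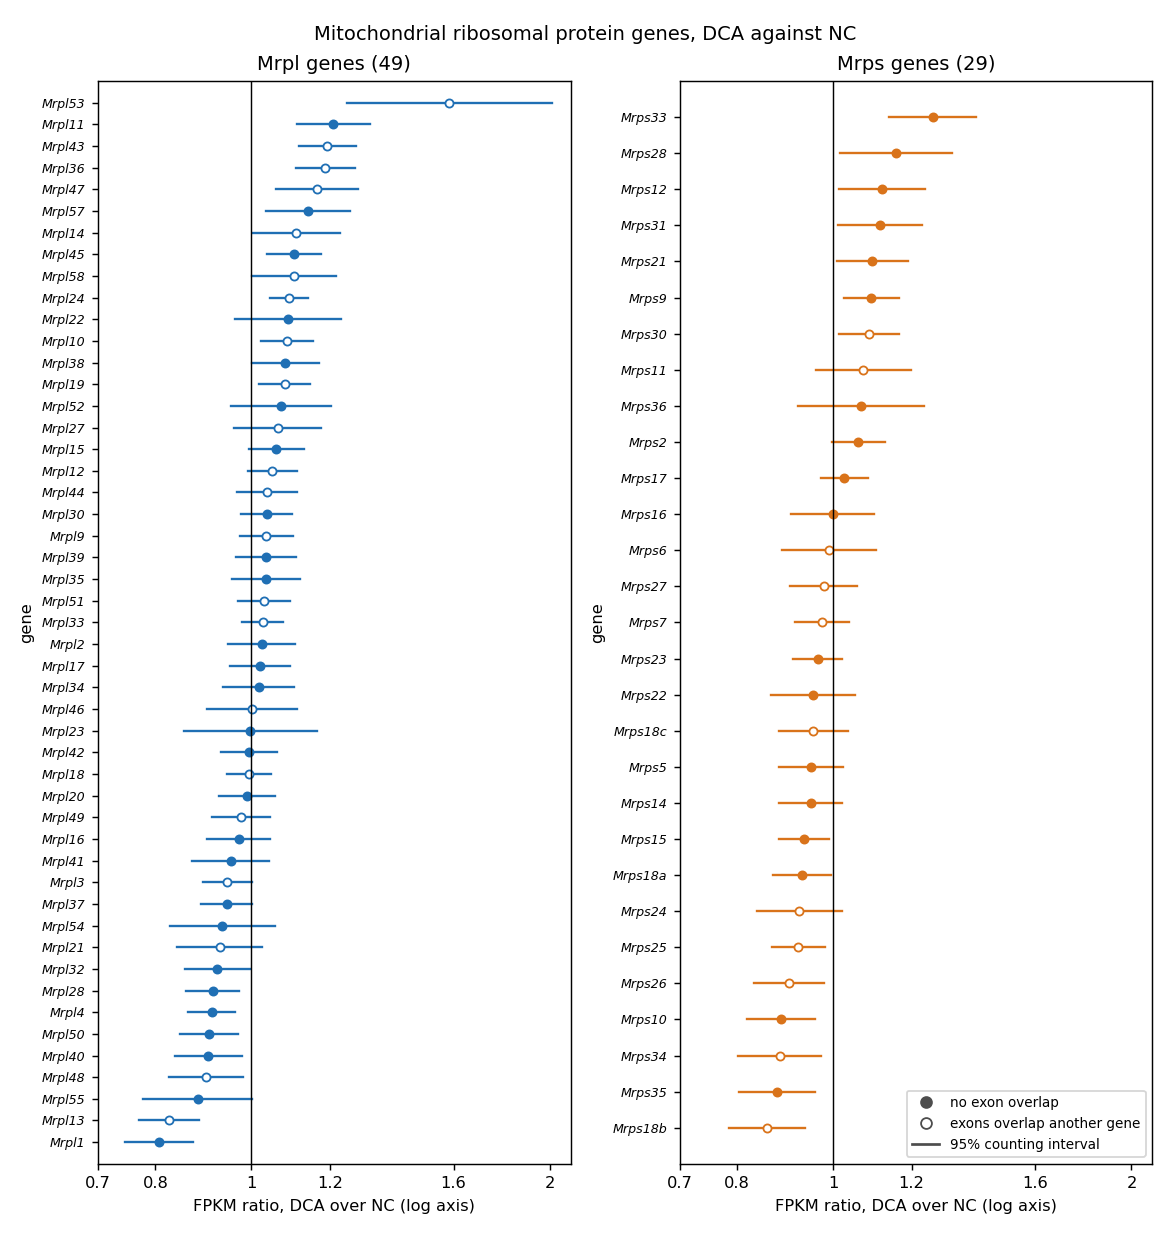
FPKM ratio, DCA over NC on a log axis, for the 49 Mrpl genes and the 29 Mrps genes. Points are the ratios, horizontal lines the exact 95% counting intervals, and open circles genes whose exons overlap another gene. Most intervals hold or lie close to equality, and Mrpl53 at 1.58 stands to the right of the rest.

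The large and the small subunit had medians of opposite sign. Of the 48 tested Mrpl genes, 29 (60.4%) were higher in DCA, beside 53.5% of all genes. Their median difference was 0.035 and their summed ratio 1.014 (interval 1.004 to 1.024). Of the 29 Mrps genes, 11 (37.9%) were higher, with a median difference of -0.035 and a summed ratio of 0.987 (0.973 to 1.001). The mean difference of the Mrps genes was closer to level, at -0.0032. With the members placed by structure, leaving out Mrps30, Mrps18a and Mrps36, the median of the 26 small subunit genes was -0.041. Their summed ratio was 0.985 (0.970 to 0.9996), with an interval that ends close to equality. Small subunit proteins with other symbols, such as Dap3, are not among the 26, and no summed ratio was computed with them. The sign of the small subunit median rested on genes that share exons with a neighbour: without them it was 0.014, and the large subunit median was 0.0074.

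In the large subunit, the stalk recruits translation factors to the ribosome, and 4 of its 5 genes were higher in DCA, beside 53.5% of all genes. Their summed ratio was 1.09 (1.05 to 1.127), and the interval lay above equality for 3, as it did for 25.6% of all genes. Only Mrpl11 and Mrpl54, whose ratios lie on opposite sides of equality, share no exon with another gene. Mrpl11 (chr19:4962147-4966999), a protein of the stalk base, had an FPKM of 3.79 in DCA (1162 reads) against 3.13 in NC (1005 reads), a ratio of 1.21 (1.11 to 1.32). Mrpl10, which anchors the stalk, had 15.6 and 14.4 and a ratio of 1.09 (1.02 to 1.15). Mrpl12, the stalk protein present in several copies, had 20.6 and 19.6 and a ratio of 1.05 (0.992 to 1.11). Both intervals lie close to equality, and that of Mrpl12 holds it. Exons of Mrpl10 overlap Gm11574 over 14.1% of their bases and those of Mrpl12 overlap Gm16755 over 13.1%, both on the other strand. Mrpl54 was the exception, at 7.83 in DCA against 8.37 in NC, a ratio of 0.935 (0.827 to 1.06).

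Mrpl53 (chr6:83109040-83109939) had the highest ratio of all members, and also few reads. Its FPKM was 2.27 in DCA (180 reads) against 1.43 in NC (119 reads), a ratio of 1.58 (1.249 to 2.01). However, 88.0% of its exon bases are shared on the same strand with Gm42688, which had 1202 and 1332 reads and a ratio of 0.944. Reads in the shared exons cannot be assigned with certainty to one of these genes. Summed over both, the ratio was 0.997 (0.925 to 1.07).

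At the rim of the exit tunnel, where the new protein leaves the ribosome for the inner membrane, all 5 genes that passed the filter were higher in DCA, beside 53.5% of all genes. Their summed ratio was 1.09 (1.06 to 1.12), and the interval lay above equality for 3, as it did for 25.6% of all genes. The 3 of them that share no exon with another gene were all higher. Without the filter, 5 of 6 exit tunnel genes were higher, as Mrpl23 was level. Sequence within 250 bases upstream of the RefSeq start is shown for the 4 of these genes with an exon-free stretch of at least 200 bases, beside Mrpl1, which had the lowest ratio of all members. In those 4 genes the stretch ends just before the first base of the annotated gene. In Mrpl1 it lies inside the annotated gene, between exons, because the annotation also has a start further upstream. The stretches are from RefSeq on GRCm38.p6, read 5′ to 3′ on the strand of the gene, and capitals mark a match to one of the motifs described further down: Mrpl17 at chr7:105811100-105811337 (minus), Mrpl22 at chr11:58171414-58171660 (plus), Mrpl24 at chr3:87919294-87919505 (plus), Mrpl45 at chr11:97315466-97315715 (plus) and Mrpl1 at chr5:96209865-96210080 (plus).
Mrpl17: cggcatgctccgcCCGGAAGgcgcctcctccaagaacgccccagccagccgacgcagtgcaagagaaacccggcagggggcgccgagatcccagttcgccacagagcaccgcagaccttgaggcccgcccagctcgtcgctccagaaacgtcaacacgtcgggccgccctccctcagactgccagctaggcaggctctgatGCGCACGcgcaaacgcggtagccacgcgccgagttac
Mrpl22: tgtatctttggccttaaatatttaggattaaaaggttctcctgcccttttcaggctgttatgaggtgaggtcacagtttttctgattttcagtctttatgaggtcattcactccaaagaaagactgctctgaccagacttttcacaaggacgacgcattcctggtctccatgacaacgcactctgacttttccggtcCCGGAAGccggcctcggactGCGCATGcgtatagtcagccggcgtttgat
Mrpl24: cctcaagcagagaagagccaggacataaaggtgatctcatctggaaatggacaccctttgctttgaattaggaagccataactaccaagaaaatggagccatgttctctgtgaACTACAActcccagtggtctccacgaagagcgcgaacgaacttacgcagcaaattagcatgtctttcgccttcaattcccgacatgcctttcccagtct
Mrpl45: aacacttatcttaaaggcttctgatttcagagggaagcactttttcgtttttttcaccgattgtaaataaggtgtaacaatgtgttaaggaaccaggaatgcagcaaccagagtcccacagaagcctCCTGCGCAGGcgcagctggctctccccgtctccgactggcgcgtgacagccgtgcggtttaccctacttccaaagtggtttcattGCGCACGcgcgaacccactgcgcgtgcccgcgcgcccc
Mrpl1: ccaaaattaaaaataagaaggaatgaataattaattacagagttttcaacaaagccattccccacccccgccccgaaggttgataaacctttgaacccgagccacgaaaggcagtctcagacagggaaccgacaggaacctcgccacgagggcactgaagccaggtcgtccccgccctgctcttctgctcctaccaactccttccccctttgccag

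Mrpl45, which binds the ribosome to the inner membrane, had an FPKM of 12.4 in DCA and 11.3 in NC and a ratio of 1.104 (1.04 to 1.18). Mrpl24 had 12.2 and 11.1, a ratio of 1.09 (1.05 to 1.14), and is among the most abundant members. It overlaps Rrnad1 on the other strand over 26.3% of its exon bases, and Rrnad1 had a ratio of 0.928. Mrpl47 had 3.0 and 2.58 and a ratio of 1.16 (1.06 to 1.28). Its exons overlap Ndufb5 and Actl6a on the other strand, which had ratios of 0.8975 and 0.919. Mrpl22 (1.09, interval 0.963 to 1.23) and Mrpl17 (1.02, interval 0.953 to 1.09) did not differ beyond counting error. Mrpl23, also an exit tunnel gene, was the only member below the filter, at an FPKM of 0.743 in DCA against 0.744 in NC. Its ratio was 0.998 (0.855 to 1.16).

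The genes near the peptidyl transferase centre, where peptide bonds are formed, showed no such direction. Mrpl2 and Mrpl27 had ratios of 1.02 and 1.06, and Mrpl16 and Mrpl3 had 0.971 and 0.945, all with intervals that hold equality. Mrpl4 had an FPKM of 5.64 in DCA and 6.18 in NC and a ratio of 0.912 (0.863 to 0.963). The summed ratio of the 5 genes was 0.961 (0.932 to 0.9904). In the central protuberance, the top of the large subunit, 3 of 7 listed genes were higher and 4 lower, beside 53.5% and 46.5% of all genes. The interval lay above equality for 1 and below it for 2, beside 25.6% and 20.0% of all genes. Among the lower ones were Mrpl48, with a ratio of 0.9003 (0.826 to 0.981), Mrpl55, at 2.06 and 2.33 and a ratio of 0.883 (0.778 to 1.002), and Mrpl40, at 7.98 and 8.82 and a ratio of 0.905 (0.838 to 0.977).

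The lowest ratios in the large subunit belonged to bacterial-type proteins outside these sites. Mrpl1 (chr5:96209493-96266727), a protein of the side stalk across from the factor-binding one, had an FPKM of 2.32 in DCA (1120 reads) against 2.87 in NC (1452 reads). Its ratio was 0.807 (0.746 to 0.873), and it shares no exon with another gene. Mrpl13 (chr15:55534094-55557748) had 2.82 and 3.41, from 1486 and 1883 reads, and a ratio of 0.826 (0.771 to 0.885). It overlaps Mtbp on the other strand over 4.16% of its exon bases, and Mtbp had a ratio of 1.21. Mrpl50, a protein without a bacterial homologue, had 13.3 and 14.6 and a ratio of 0.907 (0.847 to 0.970).

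Among the higher genes of the large subunit outside these sites were Mrpl43, Mrpl36 and Mrpl57. Mrpl43 (chr19:45004829-45006442) had 17.5 in DCA and 14.7 in NC and a ratio of 1.19 (1.12 to 1.28). It overlaps Twnk, the mitochondrial DNA helicase gene, on the other strand over 33.4% of its exon bases, and Twnk had a ratio of 0.899. Mrpl36, a small bacterial-type protein, had 13.3 and 11.2 and a ratio of 1.19 (1.11 to 1.27), with 2.58% of its exon bases shared with Ndufs6 (1.06). Mrpl57 had 4.497 and 3.94, a ratio of 1.14 (1.03 to 1.26) and no overlap. By origin, 18 of 29 bacterial-type and 12 of 21 mitochondria-specific large subunit genes were higher, beside 53.5% of all genes. The median ratio was 1.03 for both. Without the genes that share exons, the median difference of the mitochondria-specific ones was -0.036. Mrpl and Mrps genes not described one by one had ratios from 0.914 (Mrpl28) to 1.11 (Mrpl14).

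In the small subunit, Mrps33 and Mrps28 had the highest ratios. Mrps33 (chr6:39801804-39810988), a mitochondria-specific protein, had an FPKM of 5.52 in DCA (850 reads) against 4.38 in NC (706 reads), and a ratio of 1.26 (1.14 to 1.39) with no exon overlap. Mrps28 had 11.3 and 9.79, from 502 and 454 reads, and a ratio of 1.16 (1.02 to 1.32). Mrps12, a protein of the decoding centre, where codon and anticodon meet, had 5.86 and 5.23 and a ratio of 1.12 (1.01 to 1.24). The other genes among the 6 highest, Mrps31, Mrps21 and Mrps9, had ratios of 1.11, 1.095 and 1.09, each with an interval above equality.

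The mitochondria-specific Mrps genes of the small subunit were mostly lower in DCA. Of these 10 genes, 2 were higher (Mrps33 and Mrps31) and 8 lower, beside 46.5% of all genes lower. The median ratio was 0.939, and the summed ratio was 0.955 (0.931 to 0.979). Among the 5 that share no exon with another gene, 2 were higher and 3 lower, and the median difference was -0.047 in place of -0.074. The list includes Mrps18b, a relative of a bacterial protein that has a place of its own in the mitochondrial ribosome. It is not the complete class, as it leaves out small subunit proteins with other symbols, such as Dap3. The ribosomal proteins with other symbols are described below and went in both directions. The 16 bacterial-type genes had 7 higher and 9 lower, beside 53.5% and 46.5% of all genes, and a summed ratio of 1.002 (0.983 to 1.02). Mrps35 had an FPKM of 1.61 in DCA and 1.84 in NC and a ratio of 0.878 (0.803 to 0.959). Mrps34 had 3.72 and 4.21 and a ratio of 0.883 (0.802 to 0.973), with 63.4% of its exon bases overlapping Mapk8ip3 (1.01) on the other strand. Mrps26 had a ratio of 0.902 (0.831 to 0.979) and Mrps25 one of 0.923 (0.868 to 0.981), the latter with 69.8% of its exon bases overlapping Nr2c2. Among the bacterial-type genes, Mrps10 was lowest, at 1.33 and 1.504 and a ratio of 0.886 (0.818 to 0.960).

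All 3 paralogues of the S18 family, which occupy different places in the ribosome, were lower in DCA, as were 46.5% of all genes. Mrps18b (chr17:35910379-35916389) had an FPKM of 2.86 in DCA (914 reads) against 3.33 in NC (1116 reads), and a ratio of 0.857 (0.784 to 0.936). It shares 30.5% of its exon bases with Gm16279 on the other strand. Mrps18a, the large subunit copy, had 4.89 and 5.26 and a ratio of 0.930 (0.869 to 0.996). Mrps18c had 7.18 and 7.52 and a ratio of 0.955 (0.881 to 1.03), which holds equality. It shares 23.2% of its exon bases with Gm43511 on the same strand. Of the genes whose symbol and place differ, Mrps30 had a ratio of 1.09 (1.01 to 1.16) and Mrps36 one of 1.07 (0.922 to 1.23). Copies of Mrps36, Mrpl23 and Mrpl48 that the annotation lists as pseudogenes may share reads with them, so those values are uncertain.

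Another 5 proteins of the mitochondrial ribosome carry other symbols and lie outside the rule. Dap3, a GTP-binding protein of the small subunit, had 3.58 in DCA and 3.20 in NC and a ratio of 1.12 (1.06 to 1.18), and Chchd1 had 9.25 and 7.81 and 1.18 (1.09 to 1.28). Gadd45gip1, in the large subunit, had 6.22 and 7.31 and a ratio of 0.851 (0.777 to 0.931), and Aurkaip1 had 8.25 and 9.33 and 0.884 (0.834 to 0.936). Ptcd3, a pentatricopeptide repeat protein, was level at 0.997 (0.945 to 1.05).

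**Figure D2:**
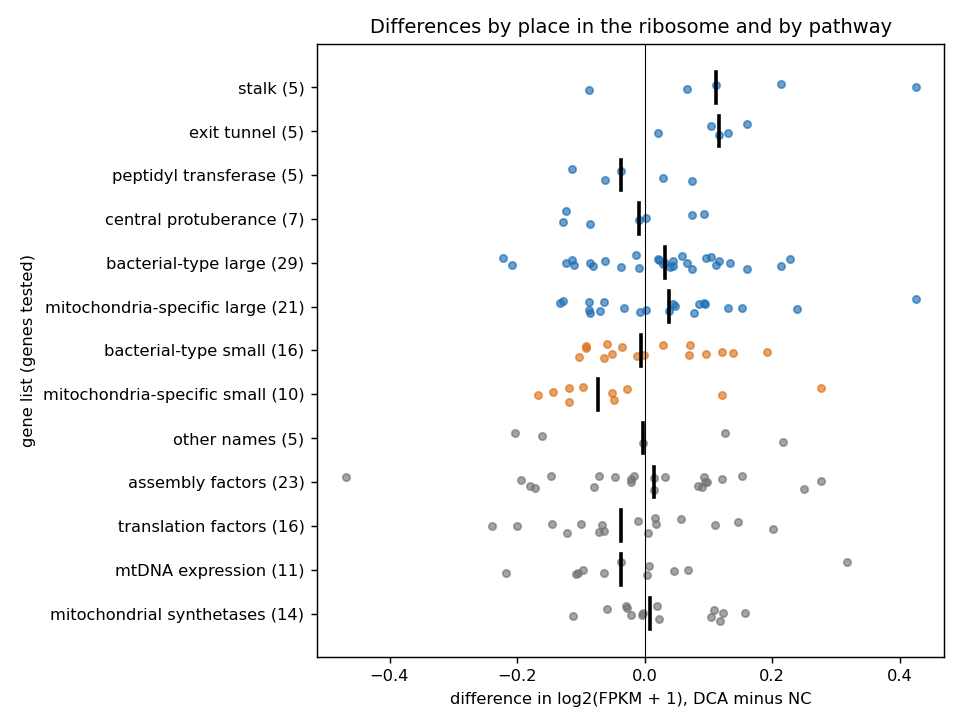
Difference in log2(FPKM + 1), DCA minus NC, by place in the ribosome and by pathway. Each point is 1 gene, bars are the list medians, blue and orange mark the large and the small subunit, grey marks genes outside the rule, and the number tested stands in brackets. The 5 tested exit tunnel genes all lie to the right of 0, with Mrpl23 left out by the filter. Of the 10 mitochondria-specific Mrps genes of the small subunit, 8 lie to the left.

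Per length, the members differed far more from one another than between the libraries. Levels here are rebuilt reads per kilobase of merged exons and 1e6 reads, since the deposited FPKM did not divide by one comparable length for each gene. The median level was 8.61 in DCA and 8.78 in NC, with a range from 1.18 to 36.9 in DCA and from 1.19 to 37.1 in NC. Across the 78 members the log2 levels of the libraries had a Pearson r of 0.9895 and the levels a Spearman rho of 0.988, a description across genes that share both libraries. The highest large subunit levels were those of Mrpl18 (36.9 in DCA, 37.1 in NC), Mrpl34 (33.5 and 33.0) and Mrpl24 (33.2 and 30.4), and Mrpl23 (1.18 and 1.19) and Mrpl48 (2.14 and 2.37) were lowest in both libraries. Next above them came Mrpl13 in DCA (3.31, with 4.01 in NC) and Mrpl53 in NC (2.54, with 4.03 in DCA).

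In the small subunit, Mrps21 (28.4 in DCA, 25.9 in NC), Mrps23 (25.9 and 26.9) and Mrps15 (22.7 and 24.3) were highest, and Mrps35 (1.89 and 2.16), Mrps10 (2.49 and 2.81) and Mrps22 (3.45 and 3.61) lowest. Mrps21 and Mrps23 thus change places between the libraries. The order depends on the length used. Per kilobase of the principal transcript, a length chosen after the data were seen, the median level was 14.8 in DCA, Mrpl33 moved to rank 1 from rank 42, and Mrpl13 to rank 25 from rank 74. The medians of the cytosolic ribosomal protein genes were higher, at 41.2 in DCA and 36.1 in NC.

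**Figure D3:**
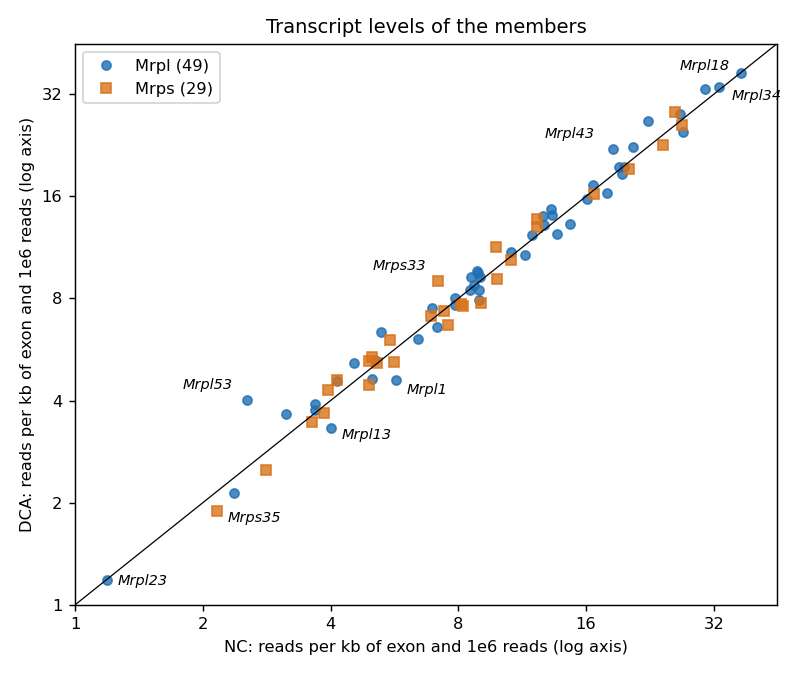
Level of the 78 members in NC (horizontal) and DCA (vertical), in reads per kilobase of merged exon and 1e6 reads, on log axes. Circles are Mrpl genes, squares Mrps genes, and the line marks equal levels. Members range from 1.18 to 36.9 in DCA and lie along the line, with Mrpl53 above it and Mrpl1 below it.

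The genes themselves are compact and often share their start with a neighbour. Their longest transcripts had a median length of 1866.5 bases, beside 3355 for the 9626 protein-coding genes that passed the filter. A protein-coding gene on the other strand started within 1000 bases for 33 of 78 members (42.3%; 24 Mrpl, 9 Mrps), beside 17.9% of those genes. Mrps11 and Mrpl46 form one such pair with each other, with ratios of 1.073 and 1.002. Exons overlapped another gene for 33 members (42.3%), beside 37.5%. Shorter members had somewhat higher ratios, with a Spearman rho of -0.24 between merged exon length and log2 ratio across 77 members, and of -0.10 across all genes tested.

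RefSeq gave a start-site window, 250 bases before to 50 after, for 69 of the 78 members. Short cores of 5 motifs were searched on both strands, and a match may overlap one of another motif. GCGCANG, from the site of NRF1, a regulator of nuclear genes for mitochondria, stood in 30 windows (43.5%), beside 32.7% of the 7784 windows of genes that passed the filter and 16.9% of all 27025. Mrpl45 had 5 such matches in its window. CCGGAAG, an ETS site of the kind that GABPA binds, stood in 25 windows (36.2%), beside 21.2% and 9.12%. AAGATGG, from the site of YY1, stood in 13 (18.8%), beside 8.17% and 6.48%. ACTACAA, from the site of ZNF143, stood in 5 (7.25%), all of them Mrpl genes, beside 4.95% and 3.45%. The E-box CACGTG, bound by Myc among others, stood in 5 (7.25%), beside 10.9% and 7.24%. In the stretches printed above, Mrpl17 and Mrpl22 each hold an NRF1 and an ETS match, Mrpl24 a ZNF143 match and Mrpl45 3 NRF1 matches. The Mrpl1 window holds none of the 5 motifs. Other windows without a match include those of Mrpl47 and Mrpl11, which were higher in DCA, and of Mrpl40, Mrpl48 and Mrps10, which were lower. A link between the motifs and the ratios was not tested. The windows of the members had a median GC content of 58.3%, beside 61% in the windows of genes that passed the filter. A match describes the letters and is not evidence of binding.

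The genes that build and serve the mitochondrial ribosome were split in both directions. Of 23 tested assembly factors, 12 were higher and 11 lower, beside 53.5% and 46.5% of all genes. Without the filter, 12 of 26 were higher. Mrm1 and Tfb1m, methyltransferases of mitochondrial ribosomal RNA, had ratios of 1.28 (1.15 to 1.43) and 1.28 (1.14 to 1.43). Mrm2, another such methyltransferase, had an FPKM of 3.53 in DCA (288 reads) against 5.27 in NC (450 reads), and a ratio of 0.670 (0.576 to 0.778). Ngrn had 0.855 (0.784 to 0.932).

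Of 16 translation factors and their helpers, 7 were higher and 9 lower, beside 53.5% and 46.5% of all genes. The initiation factor gene Mtif3 had a ratio of 1.21 (1.127 to 1.29) and Oxa1l, which inserts new proteins into the inner membrane, 1.118 (1.07 to 1.17). Slirp, a partner of the RNA-binding protein Lrpprc, had 0.803 (0.6997 to 0.922), and Mtrfr, a ribosome rescue factor, 0.808 (0.726 to 0.900). Among 11 genes for the upkeep and transcription of mitochondrial DNA, 5 were higher and 6 lower, with Tfb2m, a transcription factor, at 0.822 (0.751 to 0.899), and Twnk at 0.899. Mterf1b had 1.39 and Mterf1a 1.09, but they are close copies and may share reads.

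Among 14 tested mitochondrial aminoacyl-tRNA synthetases, 7 were higher and 7 lower, beside 53.5% and 46.5% of all genes. They ran from Wars2 at 1.23 (1.11 to 1.37) to Cars2 at 0.888 (0.830 to 0.949). Between these lay Rars2 at 1.11 and Sars2 at 0.943. Without the filter, 8 of 17 synthetases were higher. Of 8 tested regulators of mitochondrial genes, 2 were higher and 6 lower, beside 53.5% and 46.5% of all genes. The higher ones were Gabpb2 at 1.05 and Pprc1 at 1.02, and among the lower were Gabpa at 0.953 and Yy1 at 0.956. The differences were small, with a median of -0.031. Without the filter, 3 of 10 regulators were higher.

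The cytosolic ribosomal protein genes, the counterpart of the members outside the mitochondria, were higher in DCA in a larger share. Of 80 tested, 74 (92.5%) were higher in DCA and 19 by at least 1.1-fold, beside 53.5% and 8.99% of all genes. The median difference was 0.098 and the median ratio 1.07. The interval lay above equality for 60 and below it for 0, beside 25.6% and 20.0% of all genes. For the 78 tested nuclear genes of oxidative phosphorylation, whose complexes hold the products of the mitochondrial ribosome, 50 (64.1%) were higher, with a median difference of 0.034. The difference between these groups and the members was not tested, as genes of one library are not replicates.

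**Figure D4:**
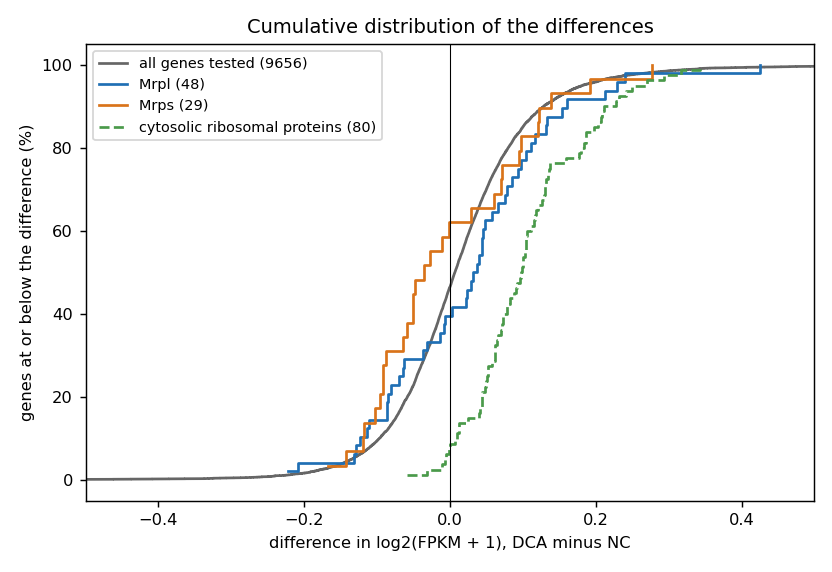
Share of genes at or below each difference in log2(FPKM + 1), DCA minus NC, for all 9656 genes tested, the 48 Mrpl genes, the 29 Mrps genes and 80 cytosolic ribosomal protein genes. The Mrpl and Mrps curves lie on either side of the curve of all genes near 0, and the cytosolic curve lies to the right of it, with a median of 0.098.

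Markers of other blood cells differed between the libraries, and their part in the members' values was not tested. Of 12 macrophage markers, all detected, 10 were lower in DCA, beside 46.5% of all genes. The summed FPKM of the 12 was 10802 in DCA and 10710 in NC, most of it Lyz2. The 11 with rebuilt reads, which leave out Lyz2, had a summed ratio of 0.964 (0.959 to 0.970). The interval lay below equality for 9 of them, beside 20.0% of all genes. Every one of the 20 neutrophil markers had the higher value in DCA, beside 53.5% of all genes, and their summed FPKM was 4539.8 there against 3849.8. The 9 lymphocyte markers that passed the filter were higher, and the summed FPKM of all 14 was 185.3 in DCA against 149.1. Of the 5 below the filter, Vpreb1 was higher in DCA (48 against 25 reads), Igll1 (35 against 75) and Cd3e (7 against 16) were lower, and Cd3d and Cd3g had 14 and 17 reads in DCA and were listed at 0 in NC. The 8 tested eosinophil, mast cell and basophil markers were higher, and the summed FPKM of all 10 was 124.2 in DCA against 88.2. Below the filter, Siglecf was higher (440 against 259 reads) and Cd200r3 lower (436 against 494). In a bulk library, fewer cells of a type and less RNA per cell cannot be told apart.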

How the data were processed

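RNA-seq of 2 mouse macrophage libraries was analysed, 1 per group, grouped by the treatment given in the labels. The authors deposited FPKM values for 15576 genes. The tools named, per the submitters' processing notes and with no role or order, were HTSeq 0.6.0, DESeq2 3.0, STAR 2.5.0c, bedtools 2.17.0 and Picard 1.126. The genome build named there is GRCm38. For the gene length behind the FPKM, the strand setting and any gene filter, the sources used here give nothing. Without strand, reads of genes that overlap on opposite strands cannot be told apart.

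Annotation was GENCODE M21, which held 15548 of the identifiers. Whole reads were rebuilt from the steps of the FPKM values, giving totals of 56.57 (DCA) and 59.21 (NC) in units of 1e6 reads, so that the typical member's ratio carries a counting interval of 7.70% on either side. Differences are log2(FPKM + 1), DCA minus NC, over the 9656 genes whose mean FPKM was 1 or more. No test was run, since each group has 1 library. The steps were tested on simulated data. Promoter sequences are from RefSeq, GRCm38.p6. Python 3.11.15, pandas 2.3.3, numpy 2.4.6, scipy 1.17.1 and matplotlib 3.10.9 were used.

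The members, gene lists and motifs were chosen with earlier results of these data known. NRF1, YY1 and ZNF143 were first searched with longer motifs, which fewer windows hold, and shortened to the cores given here after those shares had been seen. Named genes are, for Mrpl and Mrps each, the 6 highest and 6 lowest differences, the 3 highest and 3 lowest levels, the members of the stalk, exit tunnel, peptidyl transferase and S18 lists, ribosomal proteins with other symbols, members below the filter, and up to 2 genes in each direction from each pathway list. Other pseudocounts, filters, scalings, length and GC corrections, a 99% interval and the removal of overlapping genes were tried.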

Additional observations from a re-analysis of the deposited data

How the results depend on the processing

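No paired analysis was possible because each group has 1 library, and for the same reason no library could be left out. Of 920 values recomputed under other settings, 881 stayed within the counting error or 1.5 times of the reported count with the same sign, 28 moved further and 11 turned sign. Part of the 881 could not move. All members are protein-coding, so keeping only protein-coding members repeated the values. Removing overlapping members left the lists of other genes as they were. The 881 thus overstate how stable the values are. The overall median turned to -0.013 once the median of genes of like exon length was subtracted, and the small subunit median to 0.014 without overlapping genes, where the large subunit median was 0.0074. List medians near 0 also turned: assembly factors to -0.019 with no filter and -0.040 with FPKM rescaled to a common sum, synthetases to -0.0019 and -0.015 under the same settings, mitochondria-specific large subunit genes to -0.019 at a mean FPKM of at least 5 and -0.036 without overlapping genes, bacterial-type small subunit genes to 0.018 and 0.028 there, and translation factors to 0.057 at a mean FPKM of at least 5. The count of members at least 1.1-fold lower was 11 with a pseudocount of 0.1, 0 with a pseudocount of 5, 0 at a mean FPKM of at least 5, 13 with rescaled FPKM, 1 without overlapping genes and 8 with the length correction. The count at least 1.1-fold higher was 5 with a pseudocount of 5, 4 at a mean FPKM of at least 5 and 5 without overlapping genes. Members higher in DCA were 22 of 41 at a mean FPKM of at least 5 and 22 of 44 without overlapping genes, beside 53.8% and 53.5% of all genes. With a 99% interval, 12 members lay above equality and 8 below. With the 95% interval and without overlapping genes, 10 of 44 lay above and 10 below. Shares of all genes past 1.1-fold or with an interval off equality are not given for these settings. These counts thus have no background beside them. The median level was 14.8 per kilobase of the principal transcript. Beyond the fewer genes or wider interval that some settings set by construction, the cause was not tested. Counting error limits the members with few reads, such as Mrpl53 with 180 and 119, and the interval held equality for 41 of 77 members. The spread between cultures cannot be had from 1 library per group.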
